A study of Mus musculus with 17 samples.

Results

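The 10 genes described here, Per1, Per2, Per3, Cry1, Cry2, Dbp, Tef, Nr1d1, Nr1d2 and Clock, belong to the circadian clock or are direct outputs of it. They were taken by symbol from a table of 21931 mouse genes, and 10 of 10 passed the filter on low counts that left 13005 genes for testing. In the table they lie on chromosomes 11 (Per1 and Nr1d1), 1 (Per2), 4 (Per3), 10 (Cry1), 2 (Cry2), 7 (Dbp), 15 (Tef), 14 (Nr1d2) and 5 (Clock). The tumors were MC38 tumors, grown from a mouse colon cancer line placed under the skin on both sides of C57BL/6J mice aged 6 to 8 weeks, genotype WT in every sample. Cryoablation, which kills tissue with a freezing probe, was applied on day 7 after implantation to 1 of the tumors of each treated mouse. The samples are 8 tumors of the cryoablation group and 9 of the control group, and the number of mice behind them is not given. RNA came from whole tumors of the side that was not frozen, taken 5 days later in both groups. The study's text gives the sizes of the groups the other way round, so the groups, and with them the direction of every difference, rest on the label of each sample. No label or method gives the hour at which the tumors were taken, and none gives a batch. The labels number the tumors without naming the mice, so the p-values measure the spread between these tumors.

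In the mouse clock, CLOCK pairs with BMAL1 and switches on genes that carry an E-box, among them the Per and Cry genes, Nr1d1, Nr1d2, Dbp and Tef. PER and CRY proteins then hold back CLOCK and BMAL1, NR1D1 and NR1D2 repress Bmal1 through ROR elements (RORE), and DBP and TEF act on D-boxes. In tissues with a running clock such as liver, Dbp and Nr1d1 peak in the daytime hours, and Bmal1 peaks at about the opposite phase.

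The promoter sequences show where such elements stood in the genes measured here. RefSeq windows on build GRCm38.p6, from 250 bases before to 50 bases after each start, were matched to 9 of the 10 genes. The E-box CACGTG, which reads the same on both strands, was present in 7.15% of 32851 windows of all genes and in 4 of the 13 windows of the members (1 of 2 for Per1, the 1 of Cry1 and both of Tef), since some genes have several starts. The D-box TTATGTAA, on either strand, was present in 0.938% of all windows and stood 2 times in that of Per3. The RORE, on either strand, was in 0.219% of all windows and in none of the members, but in 1 window of Arntl, the gene of BMAL1. The cyclic AMP element TGACGTCA was in 1.79% of all windows and in none of the members. The 250 bases before the start of Per1 (chr11:69098699-69098948, plus strand) and Tef (chr15:81802423-81802672, plus strand) are printed for their E-box. Those before Per3 (chr4:151044666-151044915, minus strand) are printed for their 2 D-boxes, and 30 bases of Arntl that begin after its start (chr7:113207528-113207557, plus strand) for the RORE. Capitals mark the element, and each run is written 5′ to 3′ on the strand of its gene.
Per1: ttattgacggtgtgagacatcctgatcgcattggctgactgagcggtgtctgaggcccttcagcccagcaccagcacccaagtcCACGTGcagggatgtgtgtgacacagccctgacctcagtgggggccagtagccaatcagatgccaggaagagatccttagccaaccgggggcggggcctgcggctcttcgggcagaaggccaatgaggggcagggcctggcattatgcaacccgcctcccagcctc
Tef: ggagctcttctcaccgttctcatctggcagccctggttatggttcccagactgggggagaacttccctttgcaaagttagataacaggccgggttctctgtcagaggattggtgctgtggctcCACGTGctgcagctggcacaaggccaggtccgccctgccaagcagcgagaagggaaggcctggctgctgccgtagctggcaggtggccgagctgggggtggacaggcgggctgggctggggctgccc
Per3: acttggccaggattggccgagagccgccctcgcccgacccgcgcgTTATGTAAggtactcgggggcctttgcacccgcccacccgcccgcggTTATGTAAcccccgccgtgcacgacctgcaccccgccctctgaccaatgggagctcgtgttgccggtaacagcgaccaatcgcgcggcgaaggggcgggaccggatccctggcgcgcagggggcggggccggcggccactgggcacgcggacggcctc
Arntl: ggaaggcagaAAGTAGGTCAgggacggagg
A match of letters is a description of these windows and does not show that a factor was bound there.

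No clock gene differed between the groups by the test used. In the edgeR quasi-likelihood fit over all genes, 0 of the 10 members had an unadjusted p under 0.05, where 639 of 13005 genes (4.91%) did. No gene of the table passed after Benjamini-Hochberg adjustment over all genes tested, by edgeR, DESeq2 or limma, and the lowest adjusted p by edgeR was 0.728. By unadjusted p, limma voom with sample weights called 2 members (Per1 and Cry1), where it called 10.1% of all genes, and DESeq2 called 0, where it called 5.75%. The log2 fold changes of cryoablation over control ran from -0.14 for Cry1 to 0.18 for Dbp, 6 above 0 and 4 below. Their median was 0.04, beside -0.0088 over all genes tested, and the median absolute change was 0.06 beside 0.14. The tumors held 13524899 to 17898672 counts each, so that 3 counts correspond to 0.168 to 0.222 CPM (counts scaled to a common library size). These are whole tumors, where fewer cells of a type and less RNA per cell cannot be told apart.

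**Figure D1:**
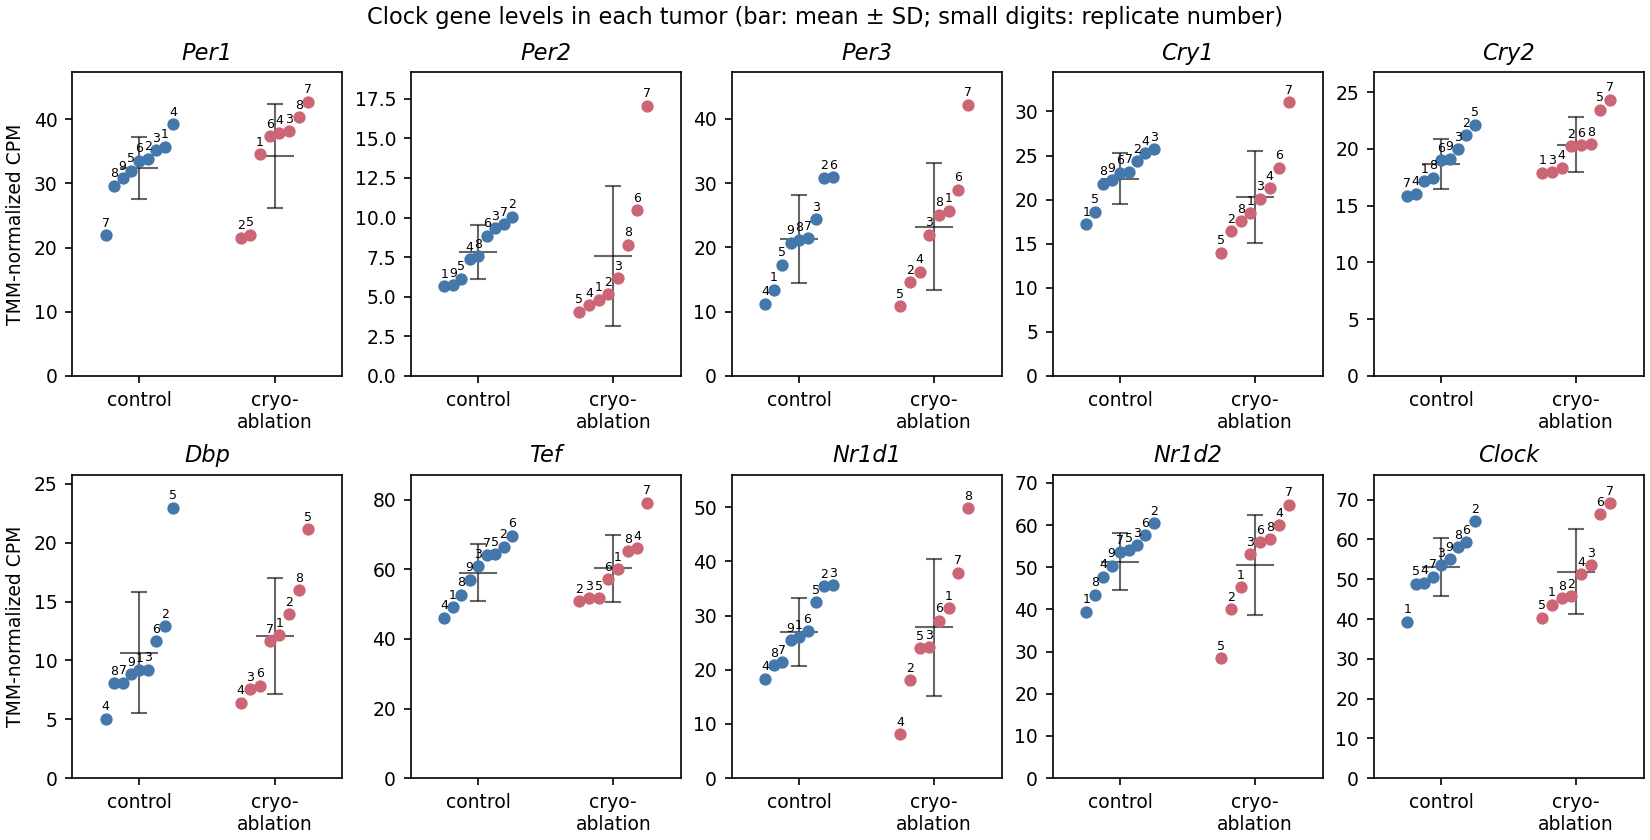
TMM-normalized CPM of the 10 clock genes in each tumor, in 9 control (blue) and 8 cryoablation (red) tumors, with points placed in order of level within a group, bars for the mean ± SD and small digits for the replicate number. The groups overlapped for all 10 genes, as for each of the 13005 genes tested, and cryoablation replicate 7 was the highest of the 17 tumors for 8 of them.

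Clock (ENSMUSG00000029238) encodes the activating partner of BMAL1. It ran from 39.4 over a median of 53.5 to 64.6 CPM in control tumors and from 40.3 over 48.5 to 69.2 CPM in cryoablation tumors. The groups overlapped over most of their range, with a log2 fold change of -0.03 (SE 0.12, edgeR adjusted p = 0.914). Bmal1, listed as Arntl and not one of the 10, averaged 40.6 ± 4.55 CPM (SD, n = 9) in controls and 36.4 ± 11.4 CPM (SD, n = 8) after cryoablation. Its log2 fold change was -0.15 (SE 0.17, edgeR adjusted p = 0.772). The lowest Bmal1 level was 18.1 CPM in cryoablation tumors and 33.0 CPM in controls.

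The Per genes encode repressors that enter the nucleus together with the CRY proteins. Per1 (ENSMUSG00000020893) ran from 22.0 over a median of 33.5 to 39.2 CPM in controls and from 21.5 over 37.6 to 42.7 CPM after cryoablation. Of the 8 cryoablation tumors, 6 were above the control median and 2 (replicates 2 and 5) near the lowest control. This gave a log2 fold change of 0.08 (SE 0.14, edgeR adjusted p = 0.832; exact permutation p = 0.735, two-sided, over all 24310 splits of the tumors). Leaving out cryoablation replicates 2, 4 and 5, which stand apart on the first principal component described further on, gave 0.25 for Per1 (unadjusted p = 0.0405 by edgeR, in a fit that called 2.45% of genes by unadjusted p).

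Per2 (ENSMUSG00000055866), another of these repressors, was at 5.68, 7.55 and 10.1 CPM (lowest, median, highest) in controls. After cryoablation it was at 4.05, 5.67 and 17.1 CPM. The highest value was that of replicate 7, and the median control was above 5 of the 8 cryoablation tumors. The log2 fold change was -0.04 (SE 0.26, edgeR adjusted p = 0.954). Without cryoablation replicate 7 it was -0.33, and without replicate 5 it was 0.05.

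Per3 (ENSMUSG00000028957) ran from 11.3 over 21.2 to 31.0 CPM in controls and from 10.8 over 23.6 to 42.2 CPM after cryoablation, again highest in replicate 7. The log2 fold change was 0.13 (SE 0.25, edgeR adjusted p = 0.850), and -0.06 without that replicate. Per3 lies inside Camta1 on the same strand, a gene at 14.1 CPM in controls and 14.8 CPM after cryoablation on average, so that reads in shared bases could be counted for either.

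The cryptochromes Cry1 and Cry2 encode the repressors that act with PER on CLOCK and BMAL1. Cry1 (ENSMUSG00000020038) ran from 17.2 over 23.1 to 25.7 CPM in controls and from 14.0 over 19.3 to 31.0 CPM after cryoablation. Of all 10 genes it had the lowest fold change, with a log2 value of -0.14 (SE 0.14, edgeR adjusted p = 0.766, exact permutation p = 0.238). Without cryoablation replicate 7, its highest tumor, it was -0.26 with an unadjusted p of 0.0422 by edgeR, in a fit that called 10.1% of genes by unadjusted p. Cry2 (ENSMUSG00000068742) ran from 15.9 over 19.0 to 22.2 CPM in controls and from 17.9 over 20.3 to 24.4 CPM after cryoablation. Its log2 fold change was 0.13 (SE 0.10, edgeR adjusted p = 0.736, exact permutation p = 0.145).

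Nr1d1 and Nr1d2 encode REV-ERB alpha and beta, the nuclear receptors that repress Bmal1. Nr1d1 (ENSMUSG00000020889) ran from 18.4 over 26.0 to 35.6 CPM in controls and from 8.12 over 26.7 to 49.8 CPM after cryoablation. Its lowest tumor was cryoablation replicate 4 and its highest replicate 8, both outside the control range. The log2 fold change was 0.05 (SE 0.25, edgeR adjusted p = 0.946). It was 0.19 without cryoablation replicate 4 and -0.13 without replicate 8. Nr1d1 shares 1075 bases with Thra on the other strand, and the strand setting of the counting is not given in the sources used here, so reads of the pair cannot be told apart there. Thra averaged 40.7 CPM in controls and 41.7 CPM after cryoablation. Nr1d2 (ENSMUSG00000021775) ran from 39.5 over 53.5 to 60.5 CPM in controls and from 28.5 over 54.6 to 64.9 CPM after cryoablation, with a log2 fold change of -0.02 (SE 0.14, edgeR adjusted p = 0.956).

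Dbp and Tef encode the PAR bZIP factors that carry the rhythm to output genes through D-boxes. Dbp (ENSMUSG00000059824) ran from 5.05 over 9.19 to 23.0 CPM in controls and from 6.40 over 11.9 to 21.1 CPM after cryoablation. All 8 cryoablation tumors lay inside the control range. The log2 fold change was 0.18 (SE 0.27, edgeR adjusted p = 0.817, exact permutation p = 0.510), and 0.02 without cryoablation replicate 5 or 0.40 without control replicate 5, the highest tumor of each group. Dbp shares 737 bases with Sphk2 on the other strand, at 25.2 CPM in controls and 25.3 CPM after cryoablation. Tef (ENSMUSG00000022389) ran from 46.1 over 60.9 to 69.6 CPM in controls and from 50.8 over 58.6 to 79.1 CPM after cryoablation, with a log2 fold change of 0.03 (SE 0.11, edgeR adjusted p = 0.913).

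Of 22 further genes of the clock, 20 were tested, and 1 was higher and 1 lower by unadjusted p, beside 3.74% and 1.17% of all genes in those directions. Their median log2 fold change was -0.01, with 10 above 0 and 10 below. Npas2, a relative of Clock that can take its place beside BMAL1, was the lower one. It was listed with 5 to 54 counts in controls and 4 to 21 after cryoablation, which is 0.383, 1.25 and 3.49 CPM (lowest, median, highest) against 0.271, 0.512 and 1.15 CPM. The median control was above 8 of 8 cryoablation tumors, though 6 of them were inside the control range. The log2 fold change was -1.21 (SE 0.38, unadjusted p = 0.00544, edgeR adjusted p = 0.728, exact permutation p = 0.0120). It was -0.93 without control replicate 4 and -1.08 without cryoablation replicates 2, 4 and 5.

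Fbxl21, an F-box protein that acts on cryptochromes, was the higher one. It ran from 1.03 over 2.09 to 2.91 CPM in controls and from 2.37 over 3.28 to 4.58 CPM after cryoablation. All 8 cryoablation tumors were above the control median, and 3 were inside the control range. Its log2 fold change was 0.61 (SE 0.20, unadjusted p = 0.00744, edgeR adjusted p = 0.728, exact permutation p = 0.00399). Neither gene passed adjustment over all genes tested.

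The other named genes of that list did not pass even the unadjusted threshold. Bhlhe41, an E-box repressor, averaged 15.0 ± 3.72 CPM (SD, n = 9) in controls and 19.7 ± 6.10 CPM (SD, n = 8) after cryoablation, a log2 difference of 0.40 (SE 0.19, unadjusted p = 0.0530, adjusted p = 0.728 by edgeR). Its relative Bhlhe40 had a mean of 121.1 CPM in controls and 124.6 CPM after cryoablation. Ciart, a repressor of CLOCK and BMAL1, had a log2 fold change of 0.16 (SE 0.15), with 8 of 8 cryoablation tumors above the control median. Nfil3, a repressor at D-boxes, had -0.09 (SE 0.12), and Rora, an activator at ROREs, -0.16 (SE 0.24). Hlf, the PAR bZIP relative of Dbp and Tef, had 0 to 22 counts in a tumor and was not tested.

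**Figure D2:**
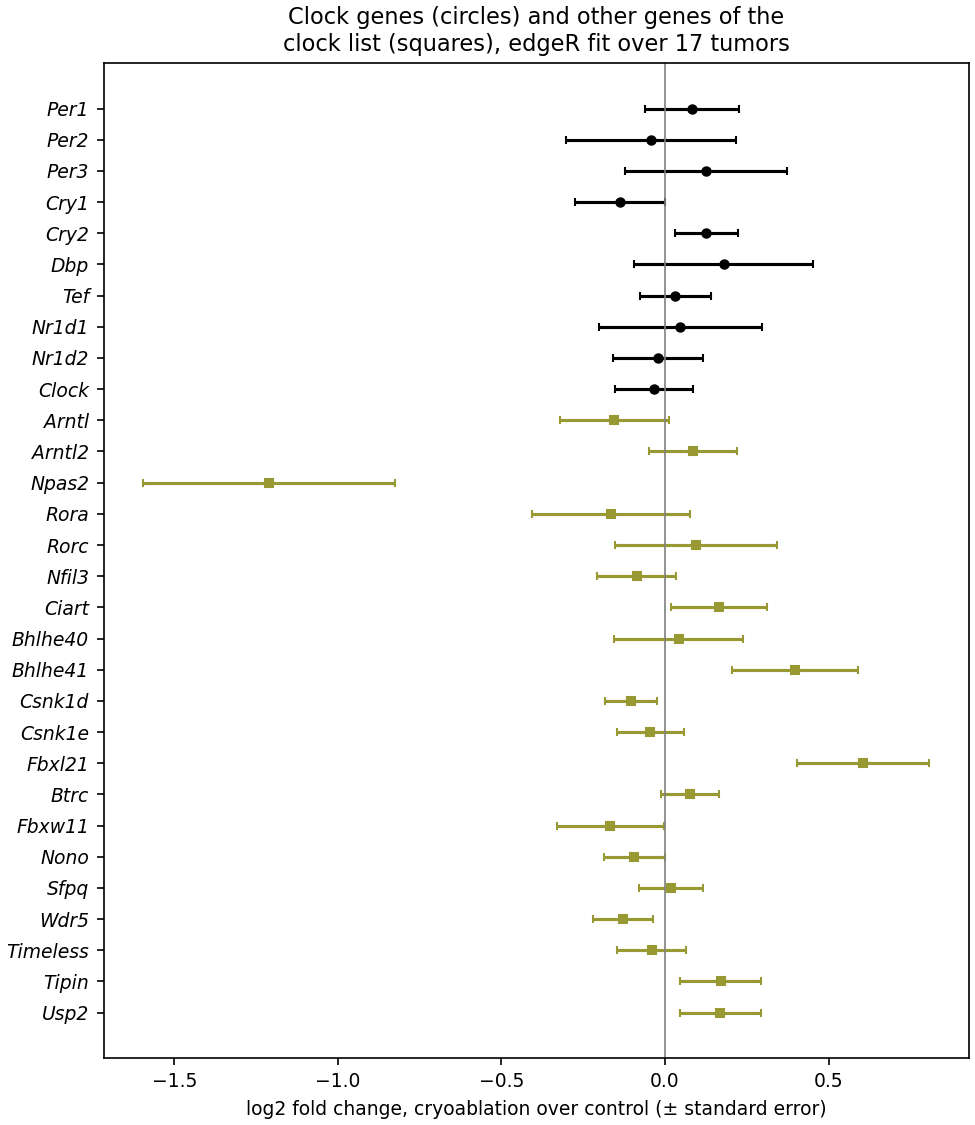
Log2 fold change of cryoablation over control with its standard error for the 10 clock genes (black circles) and the 20 tested genes of the list of other clock genes (olive squares), from the edgeR fit over 17 tumors. The 10 lay between -0.14 and 0.18, and Npas2 at -1.21 and Fbxl21 at 0.61 were the farthest from 0.

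Lists of genes near the clock were described in the same way, beside 3.74% of all genes higher and 1.17% lower by unadjusted p. Of 20 clock outputs, 19 were tested and 2 were higher by unadjusted p, none lower. These were Tfrc, the transferrin receptor, with a log2 fold change of 0.74 (SE 0.17), and Cirbp, a cold-inducible RNA-binding protein, with 0.60 (SE 0.17), while Lonrf3 was lowest at -0.39. Of 17 glucocorticoid-responsive genes, 14 were tested and 2 were higher. These were Lcn2, the acute-phase protein lipocalin 2, at 1.45 (SE 0.53) and the metallothionein Mt1 at 0.80 (SE 0.26), while Dusp1 was lowest at -0.19. Of 16 immediate early genes, all tested, 1 was higher (Ier2 at 0.63, SE 0.26) and the lowest was Egr2 at -0.26. All 5 genes named as higher had an adjusted p of 0.728 by edgeR. Their exact permutation p was 0.0007 for Tfrc, 0.012 for Cirbp, 0.024 for Mt1, 0.086 for Ier2 and 0.296 for Lcn2. The medians of the 3 lists were -0.01, 0.01 and 0.01.

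Between genes, levels were compared per length as the authors' FPKM (fragments scaled by gene length and library total), averaged over the 17 tumors. Nr1d2 stood highest at 9.55 ± 2.18 FPKM (SD, n = 17), followed by Nr1d1 at 9.02 ± 3.37 and Tef at 7.63 ± 1.44. Cry1 (6.51), Per1 (5.98), Bmal1 (5.25), Clock (3.88), Dbp (3.72), Cry2 (3.08), Per3 (2.37) and Per2 (1.35 FPKM) followed. Neighbours were compared by their log2 difference within each tumor, with a two-sided exact permutation of signs adjusted over 10 neighbouring pairs. No difference beyond the spread was found for Nr1d2 and Nr1d1 (adjusted p = 0.399), Nr1d1 and Tef (0.362), Cry1 and Per1 (0.174), Clock and Dbp (0.504) or Dbp and Cry2 (0.174). Tef was above Cry1 (adjusted p = 0.00366), Per1 above Bmal1 (0.0257), Bmal1 above Clock (0.00127), Cry2 above Per3 (0.00127) and Per3 above Per2 (0.000305).

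The genes varied between tumors to different degrees. The SD of log2 CPM within groups was 0.59 for Nr1d1, and 89.3% of tested genes with a mean CPM within a factor of 2 of it varied less. For Dbp (SD 0.59) the share was 82.2%, for Per3 (0.55) 85.0% and for Per2 (0.53) 70.2%. At the other end, the SD of Cry2 was 0.17 and only 8.46% of genes at its level varied less, with Tef (0.21) at 29.1%, Clock (0.24) at 37.1% and Cry1 (0.28) at 38.8%. Per1 (0.32) and Nr1d2 (0.30) stood near the middle, at 52.6% and 51.5%. The highest tumor was 6.13 times the lowest for Nr1d1, 4.56 times for Dbp and 4.21 times for Per2, against 1.53 times for Cry2.

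The extremes did not fall on the same tumors for all genes. Cryoablation replicate 7 was the highest of the 17 tumors for Per1, Per2, Per3, Cry1, Cry2, Tef, Nr1d2 and Clock, 8 of the 10, and this tumor was the highest for 16.8% of all genes tested. Once each tumor's trend of log2 CPM over gene length was removed, it was the highest for 3 of 10. Cryoablation replicate 5 was the lowest for Per2, Per3, Cry1 and Nr1d2, beside 21.7% of all genes. Dbp went apart from these, with its highest value in control replicate 5 and its lowest in control replicate 4.

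To see whether the genes moved together from tumor to tumor, all 55 pairs of the 10 members and Bmal1 were correlated over the 17 tumors on log2 CPM. Of these, 47 were positive, with a median Pearson r of 0.47, where the median over all pairs of tested genes was 0.00. By permutation with Benjamini-Hochberg adjustment over the 55 pairs, 19 passed and all of these were positive, 19 passed by Spearman's rho, and 16 passed by both. The pairs share libraries, so they are not independent of each other. The share of all gene pairs that would pass the same threshold is not given here. The closest was Cry1 with Clock (r = 0.82, permutation adjusted p = 0.00275, rho = 0.77). Per2 with Cry1 had r = 0.80 (adjusted p = 0.00293, rho = 0.78), and Per3 with Bmal1 r = 0.77 (adjusted p = 0.00293, rho = 0.87).

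These values depended on gene length. With each tumor's length trend removed, the median r was 0.22, beside 0.001 over all pairs of tested genes. Then 4 of 55 pairs passed, namely Per2 with Cry1 (0.77), Cry2 with Dbp (0.73), Cry2 with Clock (0.71) and Cry2 with Tef (0.70). Cry1 with Clock went from 0.82 to -0.17 and Per2 with Clock from 0.76 to -0.10. Clock is the longest of the genes, at 13727 bases in the table, beside 2993 for Dbp and 3077 for Nr1d1. Over the 14 tumors that remain without cryoablation replicates 2, 4 and 5, the median r was 0.52 and 20 pairs passed. The median over all pairs of tested genes was -0.004 there.

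**Figure D3:**
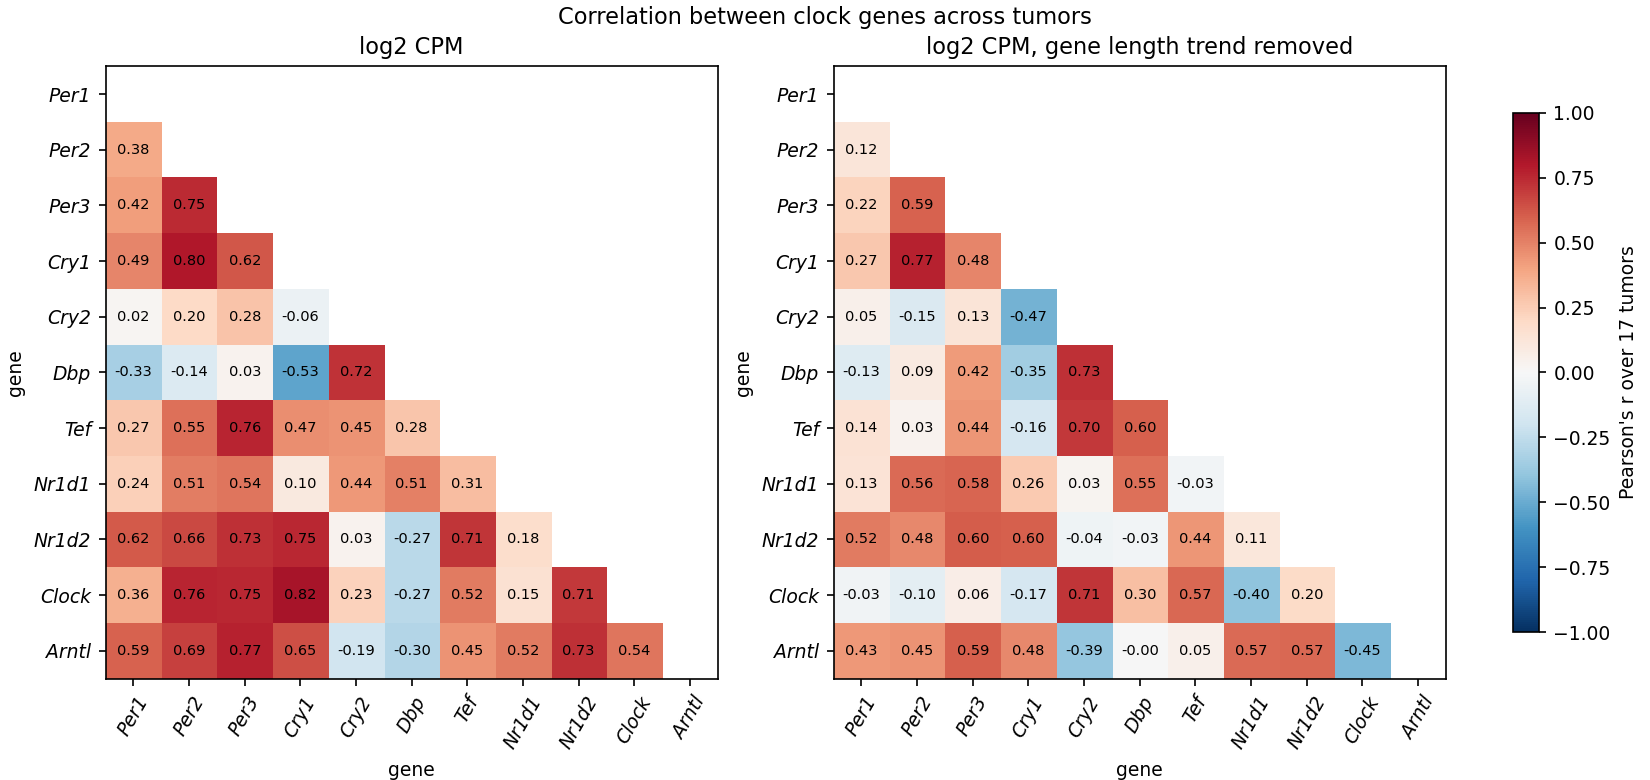
Pearson's r between each pair of the 10 clock genes and Arntl (Bmal1) over 17 tumors, on log2 CPM (left) and with each tumor's trend over gene length removed (right), on a color scale from -1 to 1. The block of high values among Per2, Per3, Cry1, Nr1d2, Clock and Arntl on the left was partly lost on the right, where Clock with Cry1 was at -0.17, while Cry2 with Dbp was at 0.72 and 0.73.

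The 3 pairs with a known phase relation were examined one by one. Dbp and Nr1d1, both driven by CLOCK and BMAL1, had r = 0.51 (permutation p = 0.0378, adjusted p = 0.0801) and rho = 0.50 (adjusted p = 0.0966). The r was 0.73 within controls, 0.49 within cryoablation tumors, and 0.63 without the 2 tumors farthest from the median of Dbp. Dbp and Bmal1, which peak at opposite times in liver, had r = -0.30 (permutation adjusted p = 0.360) and a rho of 0.0049. This r was 0.03 without cryoablation replicate 5, and it stayed below 0 with any other single tumor left out. It was 0.18 without the 2 tumors farthest from the median of Dbp and 0.12 without cryoablation replicates 2, 4 and 5. Both of these sets hold cryoablation replicate 5. With the length trend removed and no tumor left out, r was -0.003. Nr1d1 and its target Bmal1 had r = 0.52 (permutation p = 0.0430, adjusted p = 0.0875) and rho = 0.77 (adjusted p = 0.00523). Within controls this r was 0.45 and within cryoablation tumors 0.54, and it was 0.51 without the 2 tumors farthest from the median of Nr1d1.

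Cry2 with Dbp was the only pair of Dbp that passed over all tumors. It had r = 0.72 (permutation adjusted p = 0.00568) and rho = 0.66 (adjusted p = 0.0203). The r was 0.84 within controls and 0.58 within cryoablation tumors, and 0.73 without the 2 tumors farthest from the median of Cry2. With the remaining genes the r of Dbp ran from -0.53 for Cry1 (permutation adjusted p = 0.0743) to 0.28 for Tef (0.382), and none of these passed.

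**Figure D4:**
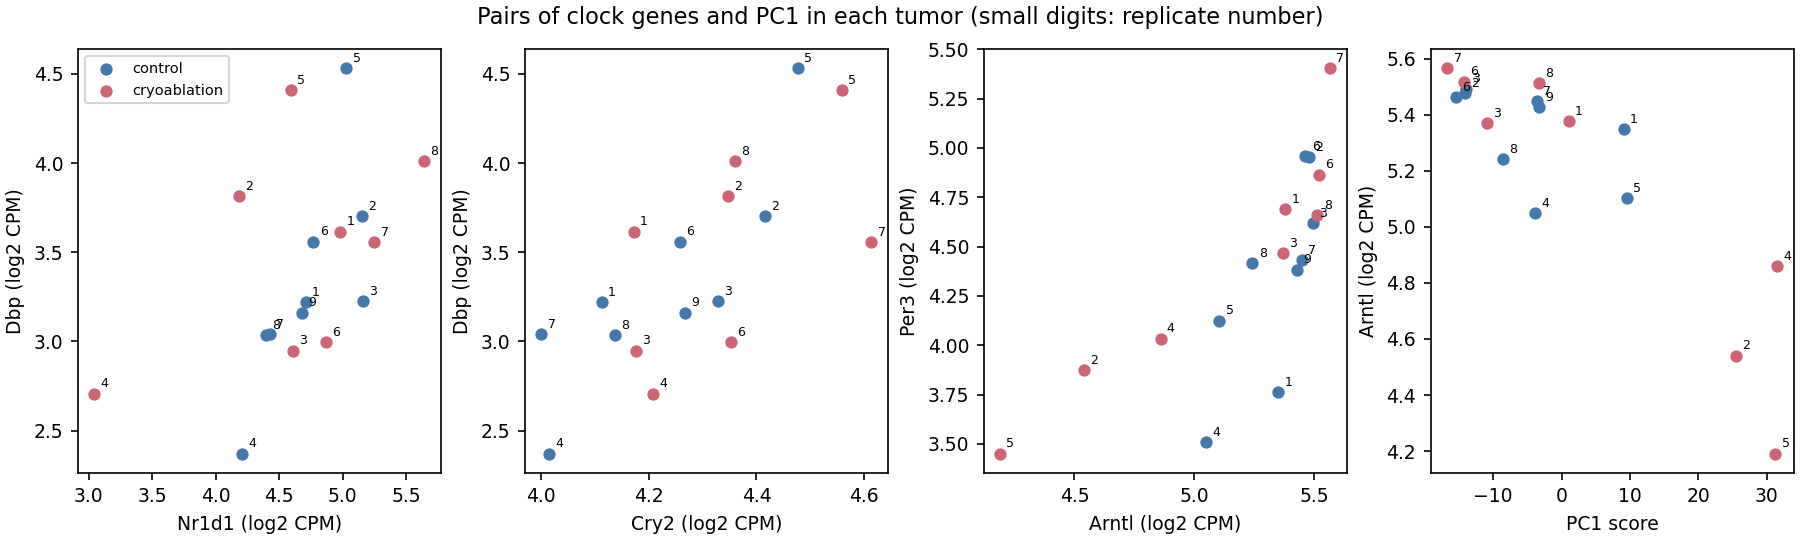
Log2 CPM of Dbp against Nr1d1, Dbp against Cry2 and Per3 against Arntl (Bmal1), and of Arntl against the score on the first principal component (PC1), 1 point per tumor, control in blue and cryoablation in red with replicate numbers. Cryoablation replicates 2, 4 and 5 lay at PC1 scores of 25.5 to 31.5 with the 3 lowest Arntl values, and the other 14 tumors at -16.7 to 9.52.

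The first principal component of the 500 most variable genes, clock genes left out, held 64.0% of their variance. Cryoablation replicates 2, 4 and 5 lay apart on it, at 25.5, 31.5 and 31.3, and the other 14 tumors between -16.7 and 9.52. Since these are separate clusters, correlations with the component were tested within the 14, over 11 genes. Of these 11, Clock was most closely tied to it (r = -0.84, permutation adjusted p = 0.00264, rho = -0.86). Cry1 (r = -0.75), Per2 (-0.71), Per3 (-0.71) and Nr1d2 (-0.65) also passed, with adjusted p of 0.0122, 0.0122, 0.0122 and 0.0288 and rho of -0.74, -0.82, -0.73 and -0.67. Without the 2 of the 14 tumors farthest from their median, these 5 were between -0.85 for Clock and -0.60 for Per3. Bmal1 had r = -0.57 (permutation adjusted p = 0.0562) and rho = -0.62 (adjusted p = 0.0373). Per1 (-0.23), Cry2 (-0.30), Tef (-0.37), Nr1d1 (-0.13) and Dbp (0.28) did not pass by either measure. The share of all genes tested that follows the component as closely is not given here. These values are therefore not shown to be particular to clock genes. With the length trend removed, r over the 14 tumors was -0.06 for Clock, -0.81 for Cry1, -0.62 for Per2, -0.48 for Per3 and -0.38 for Nr1d2. For Bmal1 it changed sign, to 0.14.

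The sums of tumor epithelial and of erythroid markers were highest in the same 3 tumors. The summed level of 9 tumor epithelial markers was 142, 142 and 215 CPM in them and at most 96.8 CPM in the others. For 8 erythroid markers the sums were 142, 91.6 and 175 CPM, against at most 74.8 CPM elsewhere. Single members did not all follow, since the epithelial marker Cdh1 was lowest of all tumors in cryoablation replicate 5, at 5.31 CPM. Macrophage sums were 3136, 2534 and 3538 CPM in the 3, beside 2784 CPM in control replicate 4. Sums of neutrophil, T cell, endothelial and skeletal muscle markers did not set the 3 apart. The part of these cells in the clock gene values was not tested. Of the epithelial markers, 5 of 9 were tested, none passed, Krt18 (2.01, SE 1.05) and Cdh1 (-0.35, SE 0.27) had the highest and lowest log2 fold change, and Cdx2, a defining marker of intestinal epithelium, had at most 3 counts in any tumor. Summed epithelial markers were at 16.8 to 96.8 CPM in controls and 10.4 to 214.6 CPM after cryoablation. By unadjusted p, 3.74% of all genes tested were higher. Erythroid markers were tested for 4 of 8, and all 4 were higher by unadjusted p (Hba-a1 highest at 1.75, Alas2 lowest at 0.71), with sums of 6.16 to 74.8 CPM in controls and 25.2 to 175 CPM after cryoablation and at most 3 counts of Slc4a1 and Epb42. Adipocyte markers were higher for 3 of 7 tested of 8 (Cfd highest at 1.61, Adipoq lowest at 0.83), with sums of 19.0 to 119.9 and 17.2 to 218.8 CPM. Neutrophil markers were higher for 2 of 5 tested of 9 (S100a9 highest at 1.61, Csf3r lowest at -0.51), with sums of 40.7 to 152 and 65.0 to 115.8 CPM and at most 3 counts of Ly6g. Epidermal markers were higher for 1 of 4 tested of 9 (Krt10; Krt5 highest at 0.76, Sbsn lowest at 0.04), with sums of 186 to 446.5 and 208.4 to 668.5 CPM.

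The remaining marker lists showed no gene higher by unadjusted p. Macrophage markers had 1 of 9 lower, where 1.17% of all genes were (Adgre1 at -0.69, with C1qa highest at 0.52), with sums of 1003 to 2784 CPM in controls and 765.5 to 3538 CPM after cryoablation. Fibroblast markers (10 of 10 tested, from Col1a1 at -0.58 to Thy1 at 0.06) summed to 7867 to 14050 and 5405 to 10450 CPM. Endothelial markers (9 of 9, from Tek at -0.45 to Cldn5 at 0.67) summed to 108.4 to 235.2 and 126.5 to 178 CPM. T cell markers (8 of 10, from Cd4 at -0.38 to Cd3g at 0.32) summed to 29.8 to 147.5 and 22.8 to 111.9 CPM. Skeletal muscle markers (5 of 12 tested, from Acta1 at -0.45 to Tnni2 at 0.14) summed to 5.15 to 174.4 and 6.09 to 75.2 CPM. How much of each clock gene came from tumor cells was not measured.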

How the data were processed

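RNA-seq libraries of 17 tumors (9 control, 8 cryoablation) were made with the SMARTER mRNA-Seq kit, per the labels. The authors deposited 1 table of read counts and FPKM values per gene. The labels list GRCm38 and mm10, while the aligner, the counter and its strand setting are not given in the sources used here. The positions in the table differed from RefSeq GRCm38.p6 for 12 of 12 genes checked, so no start or end is printed from it. The deposited FPKM equalled count over length over library total (within 0.1%) in 100% of values.

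Counts were tested with edgeR 4.0.16 in R 4.3.3 (filterByExpr, TMM, quasi-likelihood, group as the only term), with p-values adjusted by Benjamini-Hochberg over 13005 genes. This edgeR fit gives every adjusted p of a group difference. Log2 CPM used a prior count of 2. Correlations used 100000 permutations, two-sided, and single genes an exact permutation over 24310 splits (smallest possible p 4.11e-05). The length trend was a spline with 4 degrees of freedom per tumor. DESeq2 1.42.0, limma 3.58.1 and other settings were alternatives, and the fit was tested on simulated counts. No sequences other than RefSeq promoter windows were used.

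The 10 genes and all lists were chosen with earlier results of these data known. Genes named are the 10, set members of the clock list and any of it with unadjusted p under 0.05, the highest and lowest fold change of every other list (clock outputs, glucocorticoid-responsive, immediate early and cell type markers) and the 5 genes most and least correlated with Dbp. Other genes called by unadjusted p in those lists, the length and tumor exclusions for the count of pairs, and the component within 14 tumors were chosen after the values were seen. No 2 tumors held identical counts. Some genes that these rules or lists would name are not reported here.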

Additional observations from a re-analysis of the deposited data

Results flagged for a closer look

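Single tumors were compared with the rest of their group for 30 clock genes, 60 gene and group sets in all. In 2 sets the gap of the highest or lowest tumor to its nearest neighbour took a larger share of the group's range (log2 CPM) than Dixon's 95% limit. Chance flags about 1 in 20 groups, which is 3.0 of 60.

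Per1 was lowest in control replicate 7, at 22.0 CPM beside 29.7 CPM in the next control (share of the range 0.518). Sfpq, an RNA-binding partner of PER complexes, was highest in cryoablation replicate 4, at 504.5 CPM beside 365 CPM in the next (0.642).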

How the results depend on the processing

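No gene passed adjustment under any of the 8 settings or with any 1 tumor left out. Genes with unadjusted p under 0.05, 639 in all, numbered 1024 by DESeq2, 1312 by limma voom, 992 with no filter on low counts, 325 without cryoablation replicates 2, 4 and 5, and 252 to 1388 with 1 tumor left out. Members with unadjusted p under 0.05 numbered 2 by limma voom (Per1 0.30, Cry1 -0.22), 1 without those 3 tumors (Per1) and 0 to 1 with 1 tumor left out. Without those 3 tumors Per3 was at 0.43 and Nr1d1 at 0.35 (unadjusted p of 0.070 and 0.078 by edgeR). Cry1 stayed below 0 there, at -0.02. Log2 fold changes changed sign without the 3 tumors for Per2 (0.25), Nr1d2 (0.10), Clock (0.056) and Bmal1 (0.12), with a gene length offset for Per2 (0.0062), Nr1d2 (0.044) and Clock (0.085), and by limma voom for Nr1d2 (0.014) and Bmal1 (0.0018). With 1 tumor left out the range crossed 0 for Per2 (-0.33 to 0.048), Per3 (-0.057 to 0.23), Tef (-0.040 to 0.063), Nr1d1 (-0.13 to 0.19), Nr1d2 (-0.086 to 0.066) and Clock (-0.11 to 0.011). The r of Dbp with Bmal1 was 0.12 without the 3 tumors and -0.41 to 0.030 with 1 left out. That of Dbp with Nr1d1 was 0.73 without the 3 tumors and 0.43 to 0.59 with 1 left out. Its unadjusted permutation p was over 0.05 in 4 of these 17 cases. That of Nr1d1 with Bmal1 was 0.56 without the 3 tumors and 0.49 to 0.69 with 1 left out, with 8 of 17 over 0.05. Pairs that passed numbered 4 with the length trend removed and 14 to 22 with 1 tumor left out. The alternatives for this count of pairs were chosen after seeing the data, and the causes were not tested.

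The labels do not say whether replicate numbers pair the tumors. Deviations of same-numbered tumors correlated at -0.51 to 0.64 and over 0.1 in 4 of 8 pairs. In 2 of 8 cases a tumor correlated best with its own number, and these values do not settle whether there was a pairing. With the replicate number as a block, 0 genes passed adjustment, 439 had an unadjusted p under 0.05, no member did, and the log2 fold change of Nr1d1 was -0.086.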

Other observations

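Dbp varied from tumor to tumor together with genes outside the clock. With group means subtracted, the genes with the highest Pearson r over the 17 tumors, of 12965 ranked, were Nqo1 (0.93), a quinone reductase of the antioxidant response, Zfp90 (0.89), Tafa1 (0.89), Smarcal1 (0.85) and Hps1 (0.85). Among the lowest were Dip2b (-0.87), Ssh2 (-0.86), Mrps2 (-0.85) and Gxylt2 (-0.85). With the length trend removed these were 0.69, 0.65, 0.73, 0.71 and 0.70 for the first 5 and -0.87, -0.65, -0.60 and -0.83 for the last 4. Among clock genes, Cry2 ranked at 238 from the top, Nr1d1 at 1339, Tef at 3853, Per3 at 6119, Per2 at 7264, Nr1d2 at 8690, Clock at 8705, Bmal1 at 8745, Per1 at 9725 and Cry1 at 11382. The ranks come from the extremes of many genes over few tumors and carry no test.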
